A study of Populus tomentosa with 9 samples.

Results

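POPTR_0019s13100 is a poplar gene that the authors' deposited tables describe as a plant protein of unknown function with the domain DUF506, and they also give it the name POPTRDRAFT_783946. It was picked by its identifier, with its values already known, as 1 of the 41624 genes in the deposited table of FPKM, a read value that allows for the length of a gene and the size of its library. The measurements are from RNA sequencing of suspension-cultured cells of Populus tomentosa, a Chinese poplar, in 9 libraries that combined 3 cell lines with 3 treatments, 1 library for each condition and no replicates. The labels call the lines overexpression, anti sense and wild type. Every culture was grown in the dark at 25 °C with shaking at 140 rpm and taken 5 days after subculturing. Treated cells had been given 10 mM H2O2 (hydrogen peroxide, a reactive oxygen species) for 3 h or 1 mM ASA for 3 h, and control cells (labelled CK) were left in normal condition. The labels do not spell out ASA.

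Each line is limited as a model. Each construct is represented by a single cell line, and the labels do not say which gene the constructs carry, so no level can be given as a check of the overexpression or antisense effect. The labels of organism and source say poplar and suspension cells, and the POPTR identifiers are those of poplar, but the protocol for RNA extraction names Arabidopsis stems. The 1 described gene with a chlorophyll a/b binding domain, POPTR_0014s17070, was read at 4.74 to 30.9 FPKM over the 9 libraries.

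DUF506 proteins are a plant family without an assigned biochemical activity. In Arabidopsis, a DUF506 protein whose transcript accumulates when phosphate is scarce, RXR1, is known to restrain the elongation of root hairs. Phosphate supply is sensed in plants through SPX domains, which bind inositol pyrophosphates. Shortage of phosphate is met in part by purple acid phosphatases, which free phosphate from organic compounds, and by glycerophosphodiester phosphodiesterases, which take part in breaking down phospholipids.

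The FPKM values of all 33158 genes read in any library were whole multiples of the value of 1 read, so that reads could be recovered for each gene. Recovered totals ranged from 17102469 to 19629543 reads per library. For POPTR_0019s13100, 1 read was worth 0.0569 to 0.0653 FPKM and 3 reads were worth 0.171 to 0.196 FPKM. The intervals below are 95% intervals for read counts, exact unless stated otherwise. They cover counting error only, with no share for variation between cultures. On the first principal component of log2(FPKM + 1), with 40.1% of the variance, the overexpression libraries after H2O2 (87.4) and after ASA (70.6) stood apart from the other 7 libraries, which lay between -34.3 and -6.59. Across the 23350 genes that averaged 1 FPKM or more and were tested, the H2O2 minus ASA difference in the antisense line correlated with that in the wild type at -0.838, whereas the overexpression line and the wild type gave 0.622. The treated antisense libraries, as labelled, thus differ from each other in the direction opposite to the other lines over most genes. Whether these 2 labels are crossed cannot be told from the labels or the files, and the libraries are used as labelled. The fitted differences of the gene, its additive share, its likeness to other genes and the counts of DUF506 and phosphate genes are also given without both of them.

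In the overexpression line, POPTR_0019s13100 was read at 0.288 FPKM after H2O2 (5 reads, interval 0.0936 to 0.672), at 1.02 FPKM after ASA (17 reads, 0.595 to 1.64) and at 6.26 FPKM in the control (110 reads, 5.14 to 7.54). In the antisense line it was read at 4.08 FPKM after H2O2 (67 reads, 3.16 to 5.19), at 4.83 FPKM after ASA (81 reads, 3.84 to 6.005) and at 25.5 FPKM in the control (391 reads, 23.1 to 28.2). In the wild type it was read at 20.1 FPKM after H2O2 (337 reads, 18.0 to 22.4), at 29.1 FPKM after ASA (486 reads, 26.6 to 31.8) and at 98.1 FPKM in the control (1680 reads, 93.4 to 103). Within each treatment the overexpression library was lowest and the wild type library highest, and within each line the H2O2 library was lowest and the control highest. The highest overexpression value lay below all 3 wild type values, whereas the antisense control lay above the wild type H2O2 library.

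**Figure D1:**
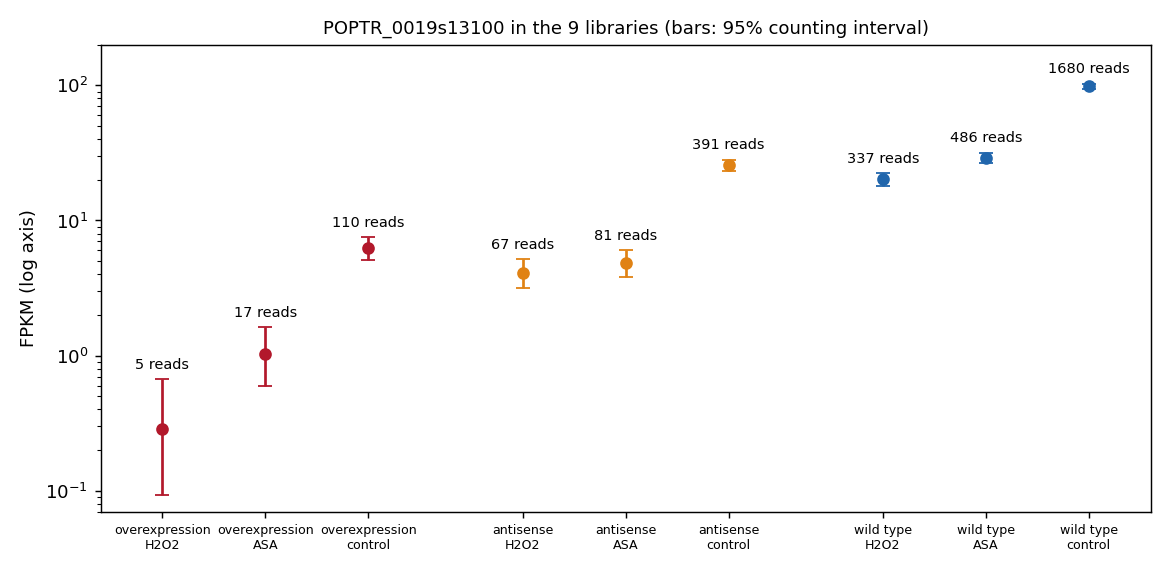
FPKM of POPTR_0019s13100 on a log axis in the 9 libraries, with 1 point per library, the exact 95% counting interval as bar and the number of recovered reads above. The points span 0.288 FPKM in the overexpression H2O2 library to 98.1 FPKM in the wild type control.

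Averaged over treatments, the gene stood at 2.52 ± 3.25 FPKM in the overexpression line, 11.5 ± 12.2 FPKM in the antisense line and 49.1 ± 42.6 FPKM in the wild type (SD over the 3 libraries of a line, which includes the treatments). Averaged over lines it stood at 8.16 ± 10.5 FPKM after H2O2, 11.7 ± 15.3 FPKM after ASA and 43.3 ± 48.4 FPKM in the controls (SD over 3 libraries, which includes the lines). Because each of these SDs takes in the other factor, the comparisons below are made within a treatment or within a line. In bulk RNA, fewer cells that carry a transcript and less of it in each cell cannot be told apart.

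From low to high, the 9 libraries ran overexpression H2O2, overexpression ASA, antisense H2O2, antisense ASA, overexpression control, wild type H2O2, antisense control, wild type ASA and wild type control. Neighbours in that order whose counting intervals overlapped were overexpression H2O2 and overexpression ASA, antisense H2O2 and antisense ASA, antisense ASA and overexpression control, and antisense control and wild type ASA. At the other 4 steps the intervals did not overlap. Overlap alone does not place a step within counting error. The interval for the ratio of H2O2 to ASA in the overexpression line, given below as a fold, excludes 1. Relative to the tested genes, POPTR_0019s13100 exceeded 1.05% of them in the overexpression H2O2 library and 94.1% of them in the wild type control. It was thus among the more abundant transcripts of untreated wild type cells and was read 5 times in H2O2-treated overexpression cells. Its 6 neighbours by locus number, POPTR_0019s13070 to POPTR_0019s13130, were read at 0 to 1.12 FPKM, and none reached the mean of 1 FPKM needed for testing.

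The first comparison set each transgenic line against the wild type under the same treatment. After H2O2 the overexpression line held 5 reads and the wild type 337, which is 69.8-fold lower in the overexpression line (interval 29.6 to 216). After ASA it was 28.5-fold lower (17.6 to 49.4), and in the control 15.7-fold lower (12.9 to 19.2). The intervals of the H2O2 and control folds do not overlap. On log2(FPKM + 1) the same 3 differences were -4.03, -3.90 and -3.77, so that the added 1 FPKM removed most of the spread between treatments. Genes lower in the overexpression line by as much on that scale, this one included, numbered 43 of the 23350 tested after H2O2, 52 after ASA and 6 in the control. A gene low in the wild type cannot fall as far on that scale, and this gene was chosen with its values known. The counts are therefore a description only.

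The antisense line was lower than the wild type by 4.92-fold after H2O2 (interval 3.78 to 6.50), by 6.03-fold after ASA (4.76 to 7.73) and by 3.84-fold in the control (3.44 to 4.30). On log2(FPKM + 1) these were -2.05, -2.37 and -1.90. All 3 lay below the wild type by more than counting error, and the ASA fold exceeded the control fold with no overlap of their intervals. Genes lower in the antisense line by as much on that scale numbered 80 after H2O2, 255 after ASA and 46 in the control. The limits of the counts for the overexpression line hold here too. With the labels of the treated antisense libraries exchanged, the folds would be 4.16 after H2O2 and 7.13 after ASA. Set against the overexpression line, the antisense line was higher by 14.2-fold after H2O2 (5.78 to 45.1), by 4.73-fold after ASA (2.78 to 8.51) and by 4.08-fold in the control (3.29 to 5.09). Both constructs therefore went with a level below wild type, and in each treatment the antisense line lay between the overexpression line and the wild type.

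A fit of line and treatment as additive factors over all 9 libraries on log2(FPKM + 1) gave fitted differences for POPTR_0019s13100 of -3.90 ± 0.18 for overexpression minus wild type and -2.11 ± 0.18 for antisense minus wild type (SE, 9 libraries). Antisense minus overexpression was 1.79 ± 0.18. These are given as a description with no test, since the gene was chosen with these values known. Over all tested genes the median fitted difference was 0.000538 for overexpression minus wild type and 0.0898 for antisense minus wild type. Without both treated antisense libraries the overexpression difference was -3.90 and the antisense difference -1.97.

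The second comparison set treated cells against control cells of the same line. After H2O2 the gene was lower than in the control by 21.7-fold in the overexpression line (interval 9.03 to 68.2), by 6.25-fold in the antisense line (4.81 to 8.22) and by 4.88-fold in the wild type (4.34 to 5.50). After ASA it was lower by 6.12-fold in the overexpression line (3.66 to 10.9), by 5.28-fold in the antisense line (4.15 to 6.80) and by 3.37-fold in the wild type (3.04 to 3.73). Both agents thus went with a lower level in all 3 lines, and each fold exceeded its counting error. On log2(FPKM + 1) the H2O2 differences were -2.49 in the overexpression line, -2.38 in the antisense line and -2.23 in the wild type. The ASA differences on the same scale were -1.84 in the overexpression line, -2.19 in the antisense line and -1.72 in the wild type.

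Few genes were as much lower in the treated cells. The counts are again a description of a gene chosen with its values known, and genes low in the control cannot fall as far. In the antisense line 2 of the 23350 tested genes, including this one, were lower after H2O2 by as much on log2(FPKM + 1), and in the wild type 36 were. After ASA the numbers were 125 in the antisense line and 49 in the wild type. In the overexpression line 222 genes were lower by as much after H2O2 and 393 after ASA. H2O2 and ASA themselves differed less. The level after H2O2 was below that after ASA by 3.55-fold in the overexpression line (interval 1.26 to 12.3), by 1.18-fold in the antisense line (0.845 to 1.66) and by 1.45-fold in the wild type (1.26 to 1.67). The antisense interval includes 1, so which of the treated antisense libraries was lower was not detectable at this depth.

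The fitted treatment differences were -2.37 ± 0.18 for H2O2 minus control, -1.92 ± 0.18 for ASA minus control and -0.45 ± 0.18 for H2O2 minus ASA (log2(FPKM + 1), SE, 9 libraries). With limma and Benjamini-Hochberg adjustment over all genes, H2O2 minus control passed an adjusted p of 0.05 in 1 of 23350 genes (0.00428%), and that gene was POPTR_0019s13100. It entered here because of such values, so the call is a description. The call was also made with genes of a mean of at least 5 FPKM and without the antisense ASA library. It was lost, leaving 0 called genes, without any other single library, without both treated antisense libraries, with a pseudocount of 0.1, 5 or none, with no filter on low values, under both other scalings, without the trend and with voom on the recovered reads. At an unadjusted p below 0.05 there were 1535 genes. For ASA minus control limma called 0 genes (0.0%), with 1325 at an unadjusted p below 0.05 and 0 by voom. For H2O2 minus ASA limma called 0 genes (0.0%), with 84 at an unadjusted p below 0.05 and 0 by voom. Without both treated antisense libraries the fitted differences were -2.36 for H2O2 minus control, -1.78 for ASA minus control and -0.58 for H2O2 minus ASA.

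The third question was whether the changes of line and treatment add on the log scale. Without a pseudocount, adding would mean that a treatment lowers the gene by the same factor in each line. On log2(FPKM + 1) it does not mean this for values near or below 1 FPKM. On that scale the changes came close to adding. Line accounted for 70.5% of the variation of the gene over the 9 libraries, treatment for 29.2%, and 0.267% was left. The corresponding medians over all tested genes were 36.0% for line and 14.3% for treatment. The residual SD was 0.147, against a median of 0.289 over all genes, and 12.4% of genes had a smaller one. With a pseudocount of 0.1 or 5 FPKM in place of 1, 74.0% and 70.1% of genes had a smaller residual SD. The additive share on log2(FPKM + 1) was larger in 0.0214% of genes, while 37 genes varied more in total. With a pseudocount of 0.1, 5 or none, 0.475%, 0.497% and 0.706% of genes had a larger additive share. The gene was chosen with its 9 values known, so these ranks are a description only. Without both treated antisense libraries 0.0567% of the variation was left on log2(FPKM + 1), with 2 residual degrees of freedom, and 13.6% of genes had a smaller residual SD.

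Without a pseudocount the picture was different at the low end. On log2 FPKM, 2.75% of the variation was left after line and treatment, the residual SD was 0.612, and 81.9% of genes with reads in every library had a smaller one. The largest residual, 0.76, was that of the overexpression H2O2 library with its 5 reads. The 1 FPKM added in the other scale exceeds the 0.288 FPKM measured there, and it compresses that value most.

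**Figure D2:**
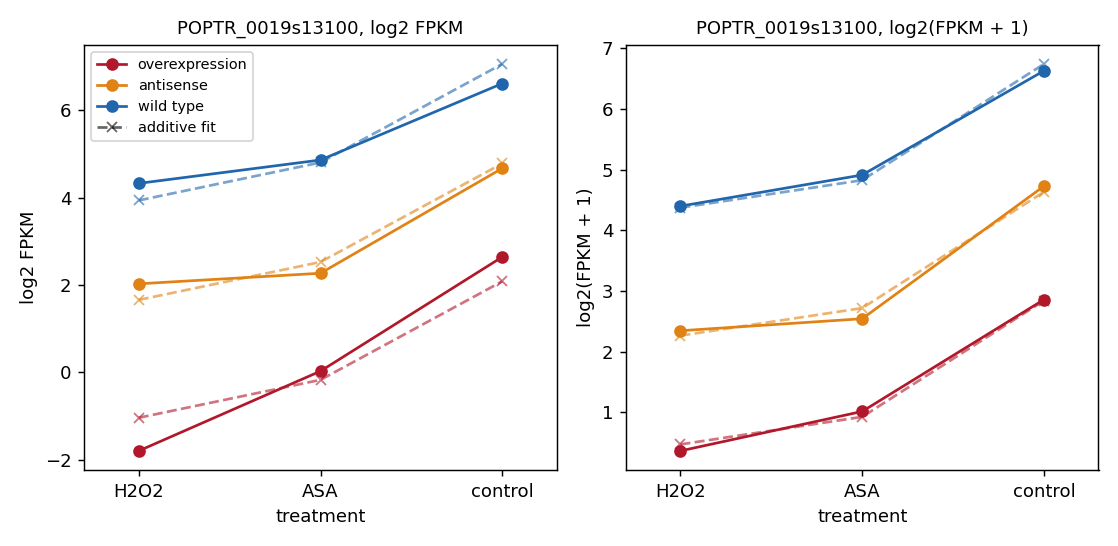
Level of POPTR_0019s13100 by treatment in the 3 lines on log2 FPKM (left) and log2(FPKM + 1) (right), with solid lines and circles for the libraries and dashed lines and crosses for the additive fit of line and treatment. Circles and crosses lie closer together on the right, where the residual SD is 0.147, than on the left, where it is 0.612 and the overexpression H2O2 library departs most.

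Each departure can be read as a double difference, the treatment change in a transgenic line minus that in the wild type. For overexpression and H2O2 it was -2.15 on log2 FPKM (counting SE 0.67, interval -3.46 to -0.85). This interval and the others given for double differences are normal approximations from the counting SE, which are rough at 5 reads. If the 2 changes had added, 1.28 FPKM or 22.3 reads would have been found, and 0.288 FPKM or 5 reads were. For overexpression and ASA the double difference was -0.86 (SE 0.38, interval -1.61 to -0.11), with 17 reads found and 30.9 under additivity. For antisense and ASA it was -0.65 (SE 0.19, interval -1.02 to -0.28), with 81 reads found and 127 under additivity. For antisense and H2O2 it was -0.36 (SE 0.21, interval -0.77 to 0.05), with 67 reads found and 85.8 under additivity. With the labels of the treated antisense libraries exchanged, the antisense double differences would be -0.11 for H2O2 (interval -0.50 to 0.27) and -0.89 for ASA (-1.29 to -0.49). All 4 double differences were below 0, which means a larger fold loss in the transgenic line. For FPKM as deposited, 3 of the 4 intervals exclude 0, and that for overexpression and ASA ends near 0, at -0.11. The other library scalings were not applied without a pseudocount, so whether these intervals exclude 0 under them was not tested. All 4 double differences share the wild type control library and are not independent of each other.

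On log2(FPKM + 1) the double differences shrank to -0.26 for overexpression and H2O2, -0.13 for overexpression and ASA, -0.15 for antisense and H2O2 and -0.47 for antisense and ASA. Values as far from 0 were common among the tested genes on that scale, in 69.3% of genes for overexpression and H2O2 and in 41.8% for antisense and ASA. On log2 FPKM, 5.18% of genes were as far from 0 as this one for overexpression and H2O2, and 28.9% for overexpression and ASA. The shares were 52.3% for antisense and H2O2 and 35.0% for antisense and ASA. With a pseudocount of 5 FPKM the sign turned to 0.95 for overexpression and H2O2, 0.69 for overexpression and ASA and 0.29 for antisense and H2O2. Whether the changes add, fall short or exceed additivity for POPTR_0019s13100 thus depends on the scale. On log2 FPKM without further scaling, where adding means an equal factor in each line, the fold loss was larger in the transgenic lines. The counting interval for antisense and H2O2 included 0 there. In FPKM itself the loss after H2O2 was 5.97 in the overexpression line, 21.4 in the antisense line and 78.0 in the wild type.

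The authors' deposited tables set each transgenic line against the wild type within a treatment and list only genes that differ by at least 1 on the log2 scale at a low q-value. POPTR_0019s13100 is in 5 of the 6 tables. The authors' deposited table for overexpression after H2O2 lists 2.47% of the 41624 genes and gives it a log2 fold of -6.04. Those for overexpression after ASA and in the control list 2.94% and 2.06% of genes, and the authors' deposited tables give it -4.81 and -4.10 there. The authors' deposited tables for antisense after ASA and in the control list 3.34% and 0.596% of genes and give it -2.82 and -2.03.

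The 1 table without it is the authors' deposited table for antisense after H2O2, which lists 1.59% of genes. The recovered reads under the scaling of that table were 67 in the antisense line and 337 in the wild type, a log2 ratio of -2.28, which is larger in size than the -2.03 listed for the antisense control from 391 and 1680 reads. In the authors' deposited tables the scaled read value of the gene is 0 in the overexpression H2O2 and ASA libraries, against 17.5 and 25.8 in the wild type, although the FPKM table holds 5 and 17 reads there. The same reads on the scale of those tables would be 0.265 and 0.922, and no value between 0 and 1 occurs in them. The log2 ratios of these unrounded values to the wild type values, -6.04 and -4.81, equal the listed folds.

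The other 4 genes described as DUF506 were not uniform. POPTR_0009s14690 followed the same order of lines, with 0.664, 3.58 and 10.7 FPKM in the overexpression line (H2O2, ASA and control), 18.6, 11.9 and 20.4 FPKM in the antisense line and 37.6, 61.1 and 69.2 FPKM in the wild type. The overexpression values were all below the antisense values, and those all below the wild type values. It fell in the overexpression line, by 3.63 ± 0.48 on log2(FPKM + 1) against the wild type (limma adjusted p = 0.0140). The antisense difference was -1.65 (limma adjusted p = 0.458).

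POPTR_0005s05950 was the least abundant, with 0.586, 0.752 and 0.534 FPKM in the overexpression line, 0.381, 0.933 and 1.84 FPKM in the antisense line and 4.39, 4.27 and 12.1 FPKM in the wild type, again for H2O2, ASA and control. All 6 transgenic libraries lay below the 3 wild type libraries, and the transgenic lines overlapped. It fell by 2.15 ± 0.31 in the overexpression line (limma adjusted p = 0.0190), and the antisense difference was -1.87 (limma adjusted p = 0.174). Unlike POPTR_0019s13100, its overexpression libraries held 12 to 16 reads, with no lower value after either treatment.

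The other two, POPTR_0004s04420 and POPTR_0011s05310, followed neither order. POPTR_0004s04420 was read at 3.48, 38.3 and 11.4 FPKM in the overexpression line, 27.8, 2.81 and 18.1 FPKM in the antisense line and 6.73, 41.1 and 35.7 FPKM in the wild type (H2O2, ASA and control). POPTR_0011s05310 was read at 14.5, 124 and 53.7 FPKM, at 69.7, 8.62 and 55.4 FPKM and at 6.99, 60.7 and 25.8 FPKM in the same order. For both genes the ASA library was the highest of its line in overexpression and wild type cells and the lowest in antisense cells. Their line differences did not pass the test, with overexpression minus wild type at -0.82 ± 1.03 (limma adjusted p = 0.723) and 1.00 ± 1.04 (limma adjusted p = 0.658).

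**Figure D3:**
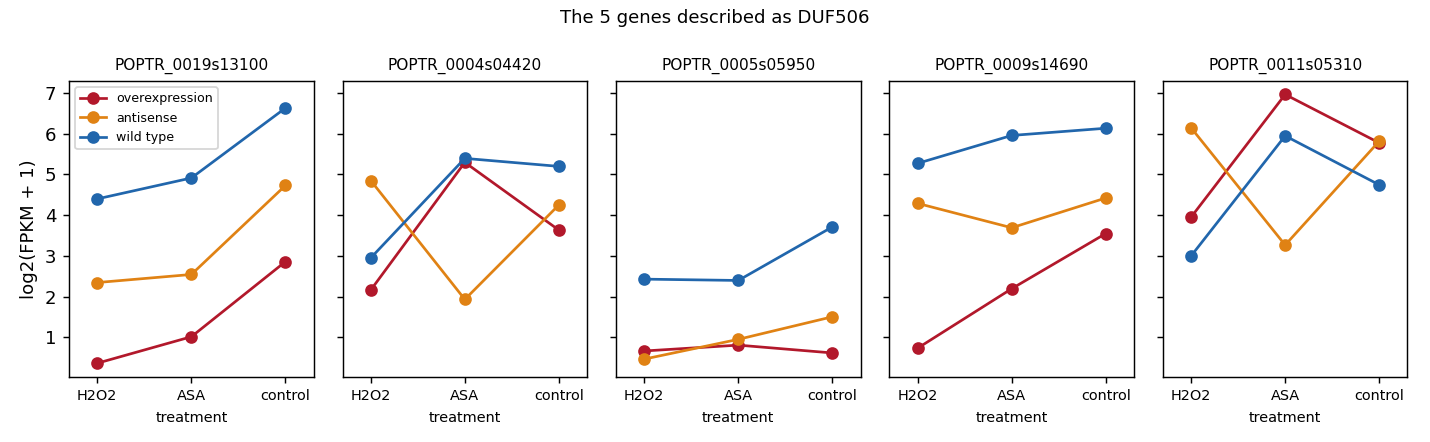
log2(FPKM + 1) by treatment in the 3 lines for the 5 genes described as DUF506, 1 panel per gene and 1 point per library. The 3 lines are layered without crossing in POPTR_0019s13100 and POPTR_0009s14690, whereas the antisense line crosses the others in POPTR_0004s04420 and POPTR_0011s05310.

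Of the 4, 2 were called lower and none higher for overexpression minus wild type, where 1.81% of all tested genes were called lower and 1.05% higher (2.86% in either direction). Their median difference was -1.48. Leaving out the overexpression H2O2 library left 1 call and leaving out the overexpression ASA library or any 1 wild type library left 0. It was 1 without both treated antisense libraries. For antisense minus wild type 0 of the 4 passed by limma (2 at an unadjusted p below 0.05, and 0 by voom), where 0.0685% of all genes were called lower and 0.0128% higher (0.0814% in either direction). For H2O2 minus control 0 of the 4 passed by limma (2 at an unadjusted p below 0.05, and 0 by voom), and for ASA minus control 0 (0 unadjusted, and 0 by voom). Only genes that the authors had listed carry a description, so DUF506 genes outside their tables are not counted. The 4 were therefore picked as different from the wild type in these same libraries. Their counts against all tested genes are not independent evidence.

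The share of POPTR_0019s13100 in the summed FPKM of the 5 DUF506 genes followed the lines. It was 1.48% after H2O2, 0.610% after ASA and 7.57% in the control of the overexpression line. In the antisense line it was 3.39%, 16.6% and 21.1%, and in the wild type 26.5%, 14.8% and 40.7%, for the same treatments. In each line the share was highest in the control, and in each treatment except ASA it was highest in the wild type.

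Across the 9 libraries the profile most like that of POPTR_0019s13100 by Pearson correlation of log2(FPKM + 1) was that of POPTR_0002s14470, which holds an SPX domain (r = 0.985). It was read at 0.197, 0.480 and 8.64 FPKM in the overexpression line, at 4.73, 5.72 and 17.4 FPKM in the antisense line and at 21.1, 26.0 and 64.9 FPKM in the wild type (H2O2, ASA and control). It also had the smallest root mean square distance from it, 0.33. Its libraries ran in the same order, except that its antisense control lay below its wild type H2O2 library. What line and treatment left of its variation on log2(FPKM + 1), 2.80%, was larger than the 0.267% of POPTR_0019s13100.

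The next genes in likeness were POPTR_0001s16420, a phosphoinositide phosphatase of the SAC type by its description (0.983), POPTR_0015s03910, a lipid-transfer protein (0.981), and POPTR_0009s08670 with a CAP domain (0.979). The purple acid phosphatase POPTR_0009s12400 (0.979) and the glycerophosphodiester phosphodiesterase POPTR_0015s06930 (0.977) followed closely. POPTR_0015s03940 (0.977), POPTR_0006s06240 (0.974) and POPTR_0010s15600 (0.972) have no deposited description, and POPTR_0013s05200 holds RCC1 and ankyrin repeats (0.972). Among described genes the AUX/IAA gene POPTR_0010s08880, of a family that represses auxin responses (0.972), the SurE-type phosphatase POPTR_0683s00200 (0.971) and the HAD-type hydrolase POPTR_0001s03020 (0.970) came next. POPTR_0006s06240 had the same rank order of libraries as POPTR_0019s13100, over the smaller range of 2.03 to 8.31 FPKM. These correlations describe 9 libraries that share 3 lines and 3 treatments.

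The 5 described genes least like it all encode ribosomal proteins, namely POPTR_0013s01830 (S21e, -0.969), POPTR_0010s19380 (L41, -0.968), POPTR_0013s02860 (L13e, -0.968), POPTR_0012s02860 (L12, -0.962) and POPTR_0014s12210 (L18e, -0.958). The S21e gene was read at 951, 891 and 601 FPKM in the overexpression line, at 596, 677 and 536 FPKM in the antisense line and at 490, 400 and 307 FPKM in the wild type. It was thus lowest in the wild type control, the library in which POPTR_0019s13100 was highest.

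**Figure D4:**
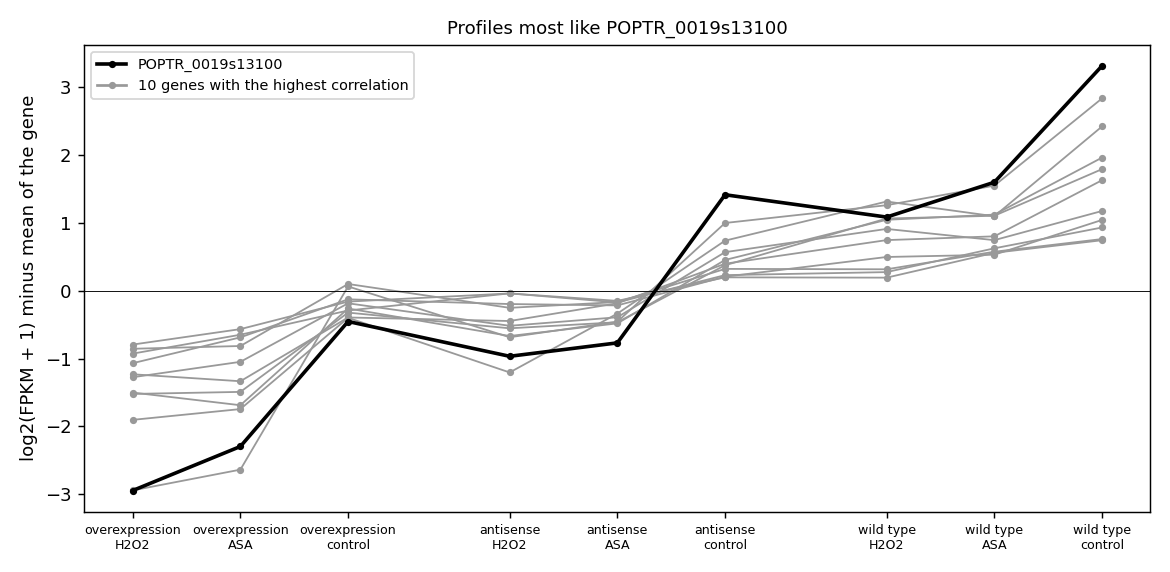
Profiles of POPTR_0019s13100 (black) and of the 10 genes with the highest Pearson correlation to it (grey) over the 9 libraries, each as log2(FPKM + 1) minus the mean of the gene. POPTR_0019s13100 lies above the 10 others in the antisense and wild type controls.

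The list was not stable in its exact members. Of the 10 genes, 2 were also among the 10 highest by Spearman correlation and 2 among the 10 nearest by root mean square distance, and 4 to 8 stayed when 1 library was left out. Without both treated antisense libraries 3 of the 10 stayed, although all 10 kept correlations of 0.974 to 0.987. Genes with r above 0.9 numbered 244 of the 23349 other tested genes and 118 of the 2914 described ones.

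Genes described as acting on phosphate were then set beside POPTR_0019s13100, as a list built from word patterns on the deposited descriptions. It has 31 genes, of which 30 also had a lower fitted level in the overexpression line than in the wild type. For overexpression minus wild type 24 of the 31 were called lower and none higher (limma adjusted p below 0.05, against 1.81% of all tested genes called lower), with a median of -2.53. The list is not independent evidence, because only genes the authors had called different in these libraries are described. Over all described genes the median for overexpression minus wild type was -0.24. By kind, 8 of 9 SPX genes, 11 of 14 acid phosphatases, 2 of 2 PHOSPHO2-type phosphatases and 3 of 6 glycerophosphodiester phosphodiesterases were called lower. The SPX gene outside the call, POPTR_0017s12260, also has an EXS domain, as in PHO1-type phosphate exporters, and its difference was 0.41. The count of 24 became 7 without the overexpression H2O2, wild type H2O2 or wild type ASA library and 12 without the overexpression ASA library. It was 23 without both treated antisense libraries.

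For antisense minus wild type 3 of the 31 were called lower, namely POPTR_0008s13870, POPTR_0009s12400 and POPTR_0015s06930, against 0.0685% of all genes, with a median of -1.54. In all, 26 of the 31 were at an unadjusted p below 0.05. Leaving out any 1 library other than the overexpression control left 0 calls, as did leaving out both treated antisense libraries, and leaving out the overexpression control gave 7. The count was also 0 with a pseudocount of 0.1 or none, with no filter and at a mean of at least 5 FPKM, 1 without the trend, 2 with voom and 4 with a pseudocount of 5. Neither treatment had a call in the list by limma or by voom, with 23 genes at an unadjusted p below 0.05 and a median of -1.09 for H2O2 minus control, and 20 genes and -1.07 for ASA minus control. POPTR_0019s13100, at -2.37 and -1.92, lay below both medians. Its correlation was above 0.9 with 24 of the 31, and the median correlation was 0.927, against 0.0238 over all tested genes. Over the described genes, from which the list was drawn, the median was 0.226, with 118 of 2914 above 0.9.

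Other described groups had medians nearer to 0 for overexpression minus wild type, where 1.05% of all tested genes were called higher and 1.81% lower. They too hold only genes the authors had listed, so the shares over all tested genes are not a matched background. The median over all described genes was -0.24. Of 62 genes with EF-hand or calmodulin in the description, which bind calcium or act with it, 1 was called higher and 4 lower in the overexpression line, with a median of -0.45. Of 20 genes in the small GTPase list, matched by words in the description, 1 was called lower, with a median of -0.13. That list takes in POPTR_0014s13420, a translation elongation factor (EFTu/EF1A) by its description. Of 166 tested genes of unknown function other than DUF506, 2 were called higher and 10 lower, also with a median of -0.13. For antisense minus wild type limma called none in these 3 groups, with 5, 3 and 25 genes at an unadjusted p below 0.05. Only 0.0814% of all tested genes were called in that comparison, so these counts of 0 set the groups apart from no other genes. A further list of 5 genes, matched by photosynthesis words, had a median of -1.03 for overexpression minus wild type, with 1 called lower. It takes in genes such as POPTR_0006s10130, which has a PdxS/SNZ domain by its description.

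**Figure D5:**
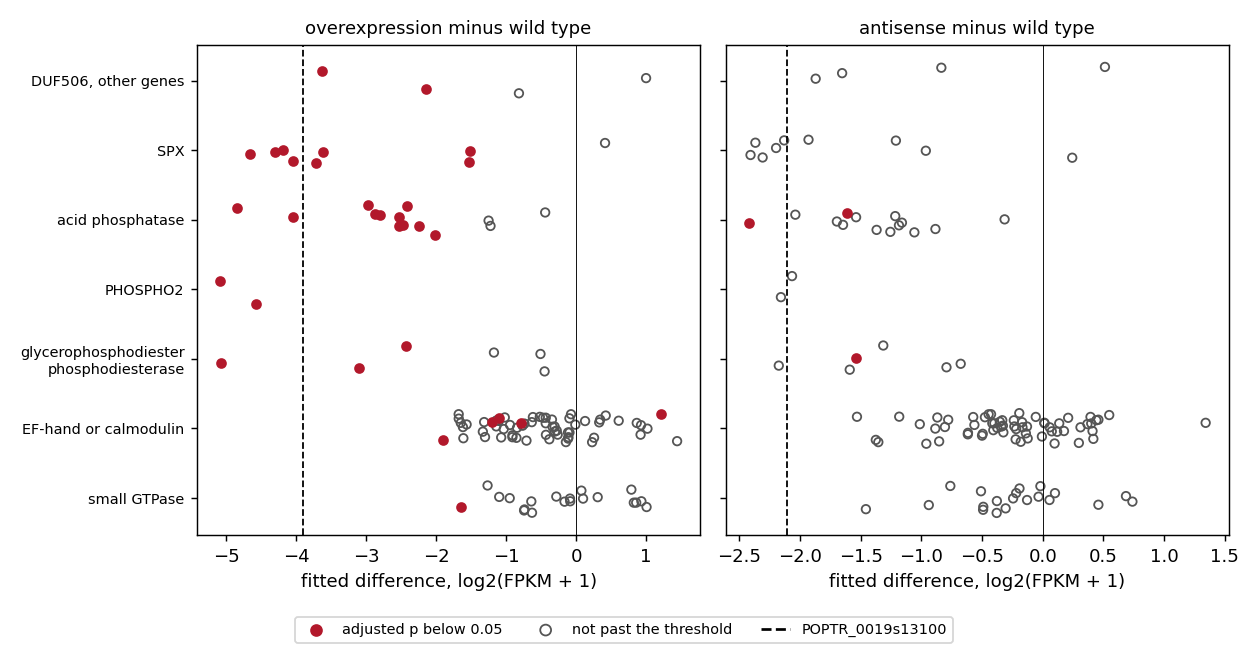
Fitted differences on log2(FPKM + 1) for overexpression minus wild type (left) and antisense minus wild type (right), 1 point per tested gene of each described group, filled where the limma adjusted p was below 0.05. The dashed line marks POPTR_0019s13100 at -3.90 and -2.11, within the range of the SPX genes and below every gene of the EF-hand and small GTPase lists.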

How the data were processed

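The submitters' processing notes name HTSeq 0.6.1, TopHat, TopHat2 2.0.12 and Bowtie2 2.2.3. What each did is not stated in them, and the build of the genome is not given in the sources used here. Values of FPKM for 41624 genes and 6 comparison tables were deposited by the authors. Per the file headers, those tables hold scaled read values (a signal scaled in each table), log2 fold changes, p-values and q-values. The groups were taken from the sample titles. No identifier matched the reference table of genes (0 matched), so names are those of the deposited tables.

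FPKM values gave whole reads in 33158 of 33158 genes above 0 (relative tolerance 5e-09), and the ratios of library totals and of steps differed by 0.0922% or less. For POPTR_0019s13100 the steps imply a length of 896 bp. Genes averaging 1 FPKM or more (23350) were fitted on log2(FPKM + 1) with limma 3.58.1 (R 4.3.3), with line and treatment as additive factors, a trend, and Benjamini-Hochberg adjustment at 0.05. Adding 1 FPKM understates changes of low genes. There are 4 residual degrees of freedom and 3.309 more from moderation, and the residual is the scatter of one factor over the other, not a replicate spread. Counting intervals are at 95%, exact for levels and folds and by a normal approximation for double differences. They cover counting error only, and reads shared by near-identical copies cannot be told apart. Python 3.11.15 with numpy 2.4.6, scipy 1.17.1 and pandas 2.3.3 did the rest. The fit and the scalings were tested on simulated data.

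The gene, lists and tests were chosen with earlier results of these data known. Named genes were the 10 with the highest Pearson correlation to POPTR_0019s13100, the 10 highest and 5 lowest among described genes, all DUF506 genes, members of the lists by correlation, and neighbours within 3 locus numbers. Letters matching "rab" within "arabino" were taken out of the small GTPase list after the descriptions were read. Alternatives were pseudocounts, filters, TMM and median-of-ratios scaling computed on the FPKM values of the tested genes, no trend and leaving out each library. Added after seeing the data were no pseudocount, voom on the recovered reads, leaving out both treated antisense libraries, and exchanging the labels of those libraries.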

Additional observations from a re-analysis of the deposited data

Results flagged for a closer look

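Both results here concern DUF506 genes other than POPTR_0019s13100 that moved in opposite directions between lines. For POPTR_0004s04420 the H2O2 minus ASA difference on log2(FPKM + 1) was 2.92 in the antisense line and -2.44 in the wild type. For POPTR_0011s05310 it was 2.88 in the antisense line and -2.95 in the wild type. The difference between the lines was not tested, because each rests on 1 library per condition. In the overexpression line the same differences were -3.13 and -3.01, on the side of the wild type. For POPTR_0019s13100 they were -0.65 in the overexpression line, -0.20 in the antisense line and -0.51 in the wild type, and the antisense value is within counting error of 0. Over all tested genes the antisense and wild type differences correlated at -0.838, and the part of the 2 treated antisense libraries in these results was not tested.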

How the results depend on the processing

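With 1 library per condition there is no replicate spread, and 5 reads in the overexpression H2O2 library limit every value that uses it. No paired analysis was possible because each condition has 1 library and the labels carry no replicate numbers by which to block, although the additive fit itself compares lines within treatments and treatments within lines. Over all alternatives, 156 values stayed within the limits set, 72 moved and 4 changed sign, and the causes were not tested.

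On the fitted differences of POPTR_0019s13100, overexpression minus wild type became -4.79 with a pseudocount of 0.1, -2.65 with 5, -4.98 with none and -4.60 with voom. Antisense minus wild type became -1.67 with 5 and -2.37 with voom. Antisense minus overexpression became 2.53 with 0.1, 0.98 with 5, 2.70 with none and 2.23 with voom. H2O2 minus control became -2.98 with 0.1, -1.63 with 5, -3.12 with none and -2.68 with voom. ASA minus control became -2.21 with 0.1, -1.38 with 5 and -2.26 with none. H2O2 minus ASA became -0.77 with 0.1 and -0.87 with none. The pseudocount changes the scale itself. Leaving out each library gave -3.99 to -3.82 for overexpression minus wild type, -2.19 to -1.98 for antisense minus wild type, 1.71 to 1.92 for antisense minus overexpression, -2.45 to -2.29 for H2O2 minus control, -1.999 to -1.78 for ASA minus control and -0.59 to -0.37 for H2O2 minus ASA.

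The double differences on log2(FPKM + 1) turned with a pseudocount of 5, to 0.95 for overexpression and H2O2, 0.69 for overexpression and ASA and 0.29 for antisense and H2O2, while antisense and ASA became -0.040. With the labels of the treated antisense libraries exchanged, antisense and H2O2 turned to 0.046. For overexpression and H2O2 the value was -1.75 with 0.1 and -2.15 with none.

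Genes called for overexpression minus wild type numbered 668, with 395 left without both treated antisense libraries and 70 to 1478 when each library was left out (70 for wild type ASA, 72 for overexpression H2O2, 73 for wild type H2O2, 100 for overexpression ASA, 135 for the wild type control, 279 for the antisense control and 1478 for the overexpression control). For antisense minus wild type the 19 calls became 3 with a pseudocount of 0.1, 2 with none, 0 with no filter, 7 at a mean of at least 5 FPKM, 0 without both treated antisense libraries and 0 to 30 when each library was left out. For H2O2 minus control the 1 call became 0 with pseudocounts of 0.1, 5 and none, no filter, TMM, median-of-ratios, no trend, voom and without both treated antisense libraries, and 0 to 1 when each library was left out. ASA minus control had 0 calls throughout. The 2 other DUF506 genes called became 1 at a mean of at least 5 FPKM and 1 without both treated antisense libraries, with 0 to 2 when each library was left out. At a mean of at least 5 FPKM, POPTR_0005s05950, which averaged 2.86 FPKM, was not tested. The 24 phosphate genes called became 7 to 27 when each library was left out.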
